A study of Rattus norvegicus with 18 samples.

Results

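Hivep3, Apc, Mapk8, Prkci, Arhgap17, Spata5 and Pianp are 7 genes of the 17337 in a rat bone repair count table, and all 7 were among the 11814 genes abundant enough to test. They were picked by name, with results of these data known, because their levels were low around the ACPC-NP scaffold at week 6, so their week 6 values are a description and carry no test. The criterion that picked them is not recorded, so no genes can be placed just inside or outside it.

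The data come from wild-type rats in which a critical-sized defect of the radius was bridged with a 3D-printed scaffold of polycaprolactone (PCL), a slowly degrading polyester. The scaffold was bare PCL, PCL carrying calcium phosphate microparticles (CaP) or PCL carrying nanoparticles of chitosan and amorphous calcium phosphate (ACPC-NP). Messenger RNA was sequenced from marrow and bone cells freed, after lysis of red cells and enzyme digestion, from tissue within 1 mm of the scaffold at week 2 or week 6, which gave 6 groups of 3 libraries. Every animal carried a scaffold, so bare PCL is the reference rather than untreated bone, and each library is a mixture of marrow, bone and blood-derived cells. Whether each library is a separate animal is not stated in the labels, so p-values measure only the spread between libraries, which may be technical.

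The genes act at different points of signalling. Hivep3 (Schnurri-3) is a large zinc finger adaptor that in mice restrains bone formation by osteoblasts, in part through the turnover of Runx2. Apc is the scaffold of the complex that marks beta-catenin for destruction and so keeps Wnt signalling off, and Mapk8 encodes JNK1, a stress-activated kinase that phosphorylates c-Jun. Prkci is the atypical protein kinase C of the Par polarity complex, and Arhgap17 is a GTPase-activating protein that switches off Cdc42 and Rac. Pianp is a ligand of the inhibitory receptor PILR alpha. Spata5 (Afg2a) is not a signalling gene: it encodes an AAA ATPase whose yeast counterpart recycles factors from the maturing large ribosomal subunit. The gene they were to be read against, Ebf1, encodes early B cell factor, a transcription factor required for B lineage commitment that marrow stromal cells also express.

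Because the question was whether the genes follow Ebf1, the 250 bases before the start of each gene were searched for the letters that early B cell factor prefers. RefSeq (build GRCr8) gave this stretch for 5 of the 7 genes; Hivep3 and Pianp are named only. The core CCCNNGGG, where N is any base and both strands read alike, was in Mapk8 alone, as a pair of overlapping matches of which the first begins 111 bases before the start, and it was in 10.8% of the 33469 promoters of the same length. The longer form, with a T before this core and an A after it, was in 0 of the 5 and in 0.738% of promoters. A match is only a match of letters, and its absence from this window says nothing about the factor. The 4 stretches shown are those of the 3 genes besides Hivep3 whose correlation with Ebf1 passed the test without the ACPC-NP week 6 libraries (Arhgap17, Prkci and Spata5), and that of Mapk8, in which capitals mark the overlapping core matches.
Arhgap17 (chr1:187327937-187328186, minus strand): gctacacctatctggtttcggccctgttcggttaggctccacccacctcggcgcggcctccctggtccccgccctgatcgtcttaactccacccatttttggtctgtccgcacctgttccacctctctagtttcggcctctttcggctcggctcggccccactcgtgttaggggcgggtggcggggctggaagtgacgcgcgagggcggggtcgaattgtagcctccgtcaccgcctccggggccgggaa
Prkci (chr2:114310785-114311034, minus strand): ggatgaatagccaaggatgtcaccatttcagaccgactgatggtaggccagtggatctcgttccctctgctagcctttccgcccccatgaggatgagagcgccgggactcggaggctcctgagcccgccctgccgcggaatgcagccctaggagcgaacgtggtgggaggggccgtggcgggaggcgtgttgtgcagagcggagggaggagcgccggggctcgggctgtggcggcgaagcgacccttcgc
Spata5 (chr2:122234633-122234882, plus strand): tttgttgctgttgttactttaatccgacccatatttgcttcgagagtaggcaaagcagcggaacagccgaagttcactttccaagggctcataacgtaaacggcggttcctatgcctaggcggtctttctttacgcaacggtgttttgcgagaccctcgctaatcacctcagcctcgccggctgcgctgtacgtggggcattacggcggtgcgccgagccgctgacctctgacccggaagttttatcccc
Mapk8 (chr16:8728226-8728475, minus strand): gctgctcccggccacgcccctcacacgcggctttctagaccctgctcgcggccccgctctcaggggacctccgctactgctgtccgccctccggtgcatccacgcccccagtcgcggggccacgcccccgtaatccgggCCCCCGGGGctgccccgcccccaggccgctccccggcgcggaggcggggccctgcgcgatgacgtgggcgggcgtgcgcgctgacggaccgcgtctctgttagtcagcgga
The stretches of Mapk8, Prkci and Arhgap17 were rich in G and C, at 76.8%, 66.8% and 65.6%. That of Spata5 had 54.8%, beside a median of 51.2% over all promoters.

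Libraries held between 18880604 and 27186587 counts, and levels are given as CPM, the read count scaled to a common library size by the TMM method. The third ACPC-NP library of week 2 stood apart from the other 17: its score on the first principal component was 91.4, while the others lay between -23.9 and 25.5, and the ferritin gene Fth1 took 3.51% of its counts, against 0.129 to 0.467% elsewhere. The first PCL library of week 6 stood apart from its own group, with an Ebf1 level of 164 CPM where the other two had 340 and 372 CPM. Some of the results that rest on either library are also given without it. In these bulk libraries, fewer cells of a type and less RNA per cell cannot be told apart.

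At week 6 each of the 7 genes was lower in all 3 ACPC-NP libraries than in any of the 6 CaP and PCL libraries. The choice of the genes fixed this; over all 11814 genes, 7.53% were lower in this way. The gaps differed in size: Pianp and Hivep3 were down to 0.343 and 0.400 of the mean of the other scaffolds, while the other 5 genes lay between 0.695 and 0.758 of it. The negative binomial test of edgeR called 0 genes of 11814 at week 6 (0%) at an adjusted p under 0.05, while 2421 (20.5%) had an unadjusted p under 0.05, DESeq2 called 662 and limma voom called 3462. Without the first PCL library of week 6 edgeR called 1335 genes, and in a fit of that week's libraries only it called 317.

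**Figure D1:**
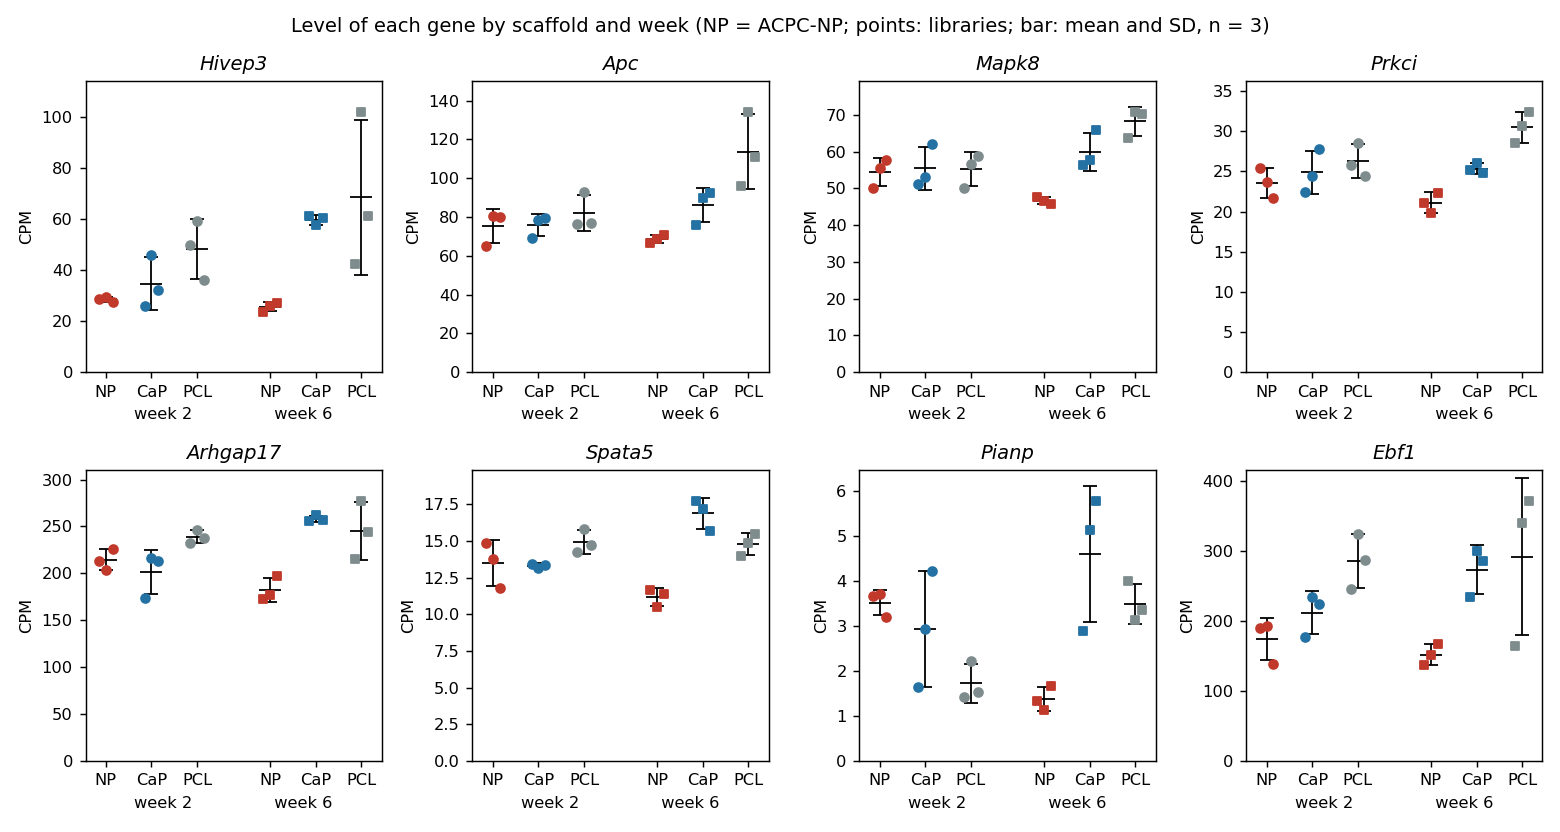
Level in CPM (vertical axis, from 0) of the 7 genes and of Ebf1 in each library, by scaffold and week; points are libraries and bars are the mean and SD of 3. At week 6 the ACPC-NP points of all 7 genes lie below every CaP and PCL point, while at week 2 the groups mostly overlap and Pianp is at 3.20 to 3.71 CPM around ACPC-NP against 1.42 to 2.22 CPM around PCL.

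Hivep3, the Schnurri adaptor, was low around ACPC-NP at week 6, and at week 2 its range there lay apart from that of PCL only. At week 6 it was at 23.7, 26.0 and 27.1 CPM around ACPC-NP, at 61.0, 57.6 and 60.4 CPM around CaP, and at 42.5, 102 and 61.4 CPM around PCL. The ACPC-NP libraries were low and close together, and the PCL libraries were far apart. At week 2 it was at 28.6, 29.5 and 27.6 CPM around ACPC-NP, at 25.8, 46.1 and 32.2 CPM around CaP, and at 49.7, 59.2 and 36.0 CPM around PCL. The ACPC-NP range lay below that of PCL and inside that of CaP. By week 6 its level was 1.72 times that of week 2 around CaP and 1.42 times around PCL, and 0.896 times around ACPC-NP.

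Apc, the brake on beta-catenin, differed little at week 2. Its week 6 levels were 66.6, 68.9 and 70.8 CPM around ACPC-NP, 76.0, 89.99 and 92.3 CPM around CaP, and 95.9, 134 and 111 CPM around PCL. The scaffolds formed 3 separate ranges, ACPC-NP lowest and PCL highest. Its week 2 levels were 65.1, 80.7 and 80.1 CPM around ACPC-NP, 69.2, 78.6 and 79.6 CPM around CaP, and 76.4, 92.7 and 76.9 CPM around PCL, so that all 3 ranges overlapped. The first ACPC-NP library of week 2 was below those of week 6.

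Mapk8, the JNK1 kinase, had its narrowest range around ACPC-NP at week 6, at 47.7, 46.5 and 45.8 CPM. CaP libraries of that week had 56.2, 57.7 and 65.9 CPM, and PCL libraries had 63.7, 70.7 and 70.3 CPM. The week 6 ACPC-NP libraries were below all 15 others. At week 2 the levels were 50.2, 55.6 and 57.7 CPM around ACPC-NP, 51.1, 53.2 and 62.1 CPM around CaP, and 49.97, 56.7 and 58.9 CPM around PCL, and all 3 ranges overlapped.

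Prkci, the polarity kinase, was at 21.1, 19.8 and 22.4 CPM around ACPC-NP at week 6. It was at 25.2, 26.1 and 24.8 CPM around CaP and at 28.5, 30.6 and 32.4 CPM around PCL, which again made 3 separate ranges; for CaP and PCL of this week 8.9% of all genes had ranges apart. At week 2 it was at 25.4, 23.7 and 21.7 CPM around ACPC-NP, at 22.5, 24.4 and 27.8 CPM around CaP, and at 25.8, 28.6 and 24.4 CPM around PCL. The week 2 groups overlapped, and the lowest of the 9 libraries was the third ACPC-NP library, which stood apart in other ways.

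Arhgap17, the GTPase-activating protein for Cdc42 and Rac, was at 173, 177 and 197 CPM around ACPC-NP at week 6, at 255, 262 and 257 CPM around CaP, and at 215, 277 and 244 CPM around PCL. CaP libraries were nearly alike, and the low PCL library was the first, the one that stood apart from its group. At week 2 it was at 213, 204 and 226 CPM around ACPC-NP, at 174, 216 and 213 CPM around CaP, and at 233, 246 and 238 CPM around PCL. Here both particle scaffolds lay below PCL without overlap.

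Spata5, the ribosome maturation ATPase, was at 11.7, 10.5 and 11.4 CPM around ACPC-NP at week 6, at 17.7, 17.2 and 15.7 CPM around CaP, and at 14.003, 14.9 and 15.5 CPM around PCL. The order of the other scaffolds differed from that of Apc and Prkci, with CaP above PCL. At week 2 it was at 14.9, 13.8 and 11.8 CPM around ACPC-NP, at 13.4, 13.1 and 13.4 CPM around CaP, and at 14.3, 15.8 and 14.7 CPM around PCL. The third ACPC-NP library was again the lowest of week 2.

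Pianp, the PILR alpha ligand, was the scarcest in reads, with 25 to 122 counts per library, so that counting error alone is 20.0% at its lowest. At week 6 it was at 1.32, 1.13 and 1.67 CPM around ACPC-NP, at 2.89, 5.14 and 5.79 CPM around CaP, and at 4.001, 3.13 and 3.35 CPM around PCL. At week 2 the place of ACPC-NP was another: Pianp was at 3.66, 3.71 and 3.20 CPM around ACPC-NP, at 1.64, 2.93 and 4.22 CPM around CaP, and at 1.42, 2.22 and 1.54 CPM around PCL. The week 2 ACPC-NP libraries were above all those of PCL and inside the range of CaP. The level around ACPC-NP at week 6 was 0.389 of that at week 2, while around PCL it was 2.02 times.

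Ordered by mean level, ACPC-NP at week 6 was the lowest of the 6 groups for each of the 7 genes. Its range overlapped that of the next group for Apc, Prkci, Arhgap17 and Pianp, and did not for Hivep3, Mapk8 and Spata5. For Hivep3 it did overlap CaP at week 2, as it reached 27.1 CPM and the lowest such CaP library had 25.8 CPM. Mapk8 and Spata5 alone were below every library of the other groups. The share of all genes with such ranges was not computed, so this is a description only. The next group was ACPC-NP at week 2 for Hivep3, Apc, Mapk8 and Prkci, CaP at week 2 for Arhgap17 and Spata5, and PCL at week 2 for Pianp. Around ACPC-NP all 7 genes had lower levels at week 6 than at week 2 (median log2 difference -0.22), around CaP all 7 had higher levels (median 0.34), and around PCL 6 of 7 had higher levels (median 0.31). Over all genes 54.8%, 53% and 49.4% had lower levels at week 6 around ACPC-NP, CaP and PCL. These comparisons over time hold the week 6 libraries used in the choice.

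The genes were described as low at week 6, so the libraries of week 2 were taken as independent of the choice and the same scaffold contrast was tested there; whether week 2 values entered the choice is not recorded. At week 2 0 of the 7 genes passed when ACPC-NP was set against the CaP and PCL mean, in a comparison where edgeR called 590 genes, or 4.99%, at an adjusted p under 0.05 (577 higher and 13 lower). Without the third ACPC-NP library of week 2 edgeR called 10 genes, and in a fit of that week's libraries only it called 4. The log2 differences of the 7 genes had a median of -0.06 beside -0.02 over all genes. Of the 7, 6 were below 0, where 53.1% of all genes were. The ranges of all 7 overlapped those of the other scaffolds, where 8.34% of all genes lay apart, and 2 of 7 had an unadjusted p under 0.05, where 19.3% of all genes did. DESeq2 called 0 of the 7 and 1019 of all genes. Hivep3 had the lowest value of the 7: its log2 difference was -0.52 ± 0.23 (SE, 3 against 6 libraries), the edgeR unadjusted p was 0.0428 and the adjusted p was 0.240. The 95% interval of that difference was -1.02 to -0.02, and the week 6 value was -1.32 ± 0.24. The change between the weeks was not tested for any of the 7, since week 6 chose them.

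For the other genes the week 2 intervals bound how large a difference could be. They ran from -0.31 to 0.18 for Apc, from -0.21 to 0.16 for Mapk8, from -0.31 to 0.08 for Prkci, from -0.23 to 0.17 for Arhgap17 and from -0.26 to 0.14 for Spata5. The week 6 log2 differences, which go with the choice of the genes, were -0.52 ± 0.12 for Apc, -0.45 ± 0.09 for Mapk8, -0.40 ± 0.09 for Prkci, -0.47 ± 0.10 for Arhgap17 and -0.50 ± 0.10 for Spata5. The edgeR adjusted p at week 2 was between 0.502 and 0.906 for them. A p that misses the threshold does not show that the scaffolds were alike.

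Pianp pointed the other way at week 2. Its log2 difference was 0.65 ± 0.28 (95% interval 0.05 to 1.24, edgeR unadjusted p = 0.0348, adjusted p = 0.218), beside -1.54 ± 0.31 at week 6. Voom with library quality weights called it higher at week 2, with a log2 difference of 0.80 and an adjusted p of 0.0403. In that comparison voom called 670 genes higher and 204 lower of 11814.

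**Figure D2:**
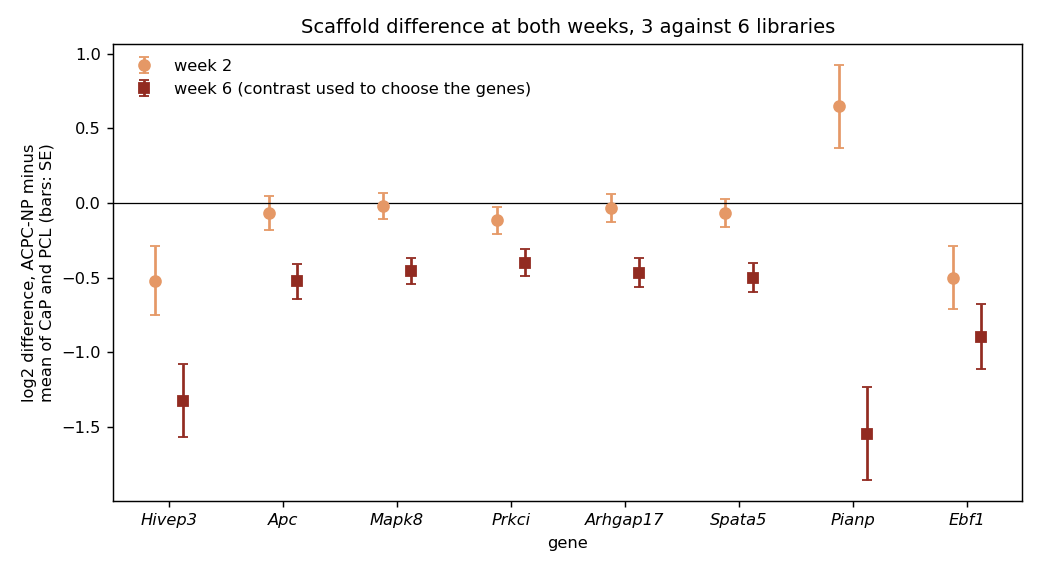
Log2 difference in level (vertical axis) between ACPC-NP and the mean of CaP and PCL for each gene at week 2 and week 6; bars are standard errors from the fit over 18 libraries. Apc, Mapk8, Prkci, Arhgap17 and Spata5 sit near 0 at week 2 and near -0.5 at week 6, Hivep3 and Ebf1 are below 0 at both weeks, and Pianp changes side; week 6 chose the genes.

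By pairs of scaffolds at week 2, edgeR called 0 of the 7 genes and 0 genes of 11814 (0%) in each of ACPC-NP against PCL, ACPC-NP against CaP and CaP against PCL. At an unadjusted p under 0.05 there were 1854, 1858 and 183 genes. DESeq2 called 634, 595 and 0, and voom called 281, 365 and 0. Against PCL, Hivep3 had a log2 difference of -0.76 ± 0.27 (edgeR adjusted p = 0.175) and Pianp one of 1.03 ± 0.33 (adjusted p = 0.144), and voom called Pianp with a log2 difference of 1.22 and an adjusted p of 0.0439. The ranges of Hivep3 and Arhgap17 were lower around ACPC-NP than around PCL without overlap, and that of Pianp higher, where 17% of all genes did not overlap. Against CaP the ranges of all 7 overlapped, where 16.5% of all genes did not. CaP was itself below PCL for Arhgap17 and Spata5 without overlap, where 6.02% of all genes did not overlap, and the edgeR adjusted p was 1.00 for each of the 7.

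The neighbours of each gene in its pathway were given by lists drawn up with earlier results known, leaving out the 7 genes themselves. At week 6 edgeR called 0 genes higher and 0 lower in each list; over all genes 49.7% had a log2 difference below 0, and the median was 0.0025. By DESeq2 2 Wnt, 4 JNK, 0 polarity, 1 Schnurri, 0 large subunit and 0 PILR genes passed at week 6. In the same order voom called 18, 9, 5, 7, 3 and 2. Of all 11814 genes DESeq2 called 307 higher and 355 lower, and voom 1773 higher and 1689 lower. At an unadjusted edgeR p under 0.05 there were 12, 7, 3, 6, 2 and 0, where 20.5% of all genes were. The values of the pair with the smallest p in each list follow, and none of them passed in edgeR.

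In the Wnt list, which holds receptors, the destruction complex and nuclear partners of beta-catenin, 25 of 31 genes were below 0 at week 6, with a median log2 difference of -0.26. Bcl9l, a coactivator of beta-catenin, had -0.95 ± 0.27 (SE, edgeR adjusted p = 0.114), and Dvl1, which relays the receptor's signal, had -0.39 ± 0.12 (edgeR adjusted p = 0.115). At week 2 edgeR called 0 of 31, with 4 at an unadjusted p under 0.05, DESeq2 called 1 and voom 3, and 19 were below 0. Genes that promote and genes that oppose Wnt signalling are both in this list.

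In the JNK list 27 of 33 genes were below 0 at week 6, with a median of -0.21. Map3k1, a kinase upstream of JNK, had a log2 difference of -0.51 ± 0.11 and Dusp10, a phosphatase that inactivates JNK, one of -0.87 ± 0.21, both at an edgeR adjusted p of 0.105. At week 2 5 of 33 rose: Map4k4, Map3k9, Dusp1, Dusp16 and Junb, with log2 differences between 1.24 and 2.24. Without the third ACPC-NP library edgeR called 0 of 33. Mapk8 itself was at -0.02 ± 0.09 in that week.

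The polarity list had 12 of 18 genes below 0 at week 6, with a median of -0.11. Scrib and Llgl2, of the Scribble module that opposes the Par complex, had log2 differences of -0.32 ± 0.12 and -0.35 ± 0.14 (edgeR adjusted p = 0.151 and 0.165), close to their week 2 values of -0.29 ± 0.12 and -0.32 ± 0.14.

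In the list of Schnurri relatives and partners 11 of 14 genes were below 0 at week 6, with a median of -0.27. Hivep1, the paralog of Hivep3, had a log2 difference of -0.82 ± 0.23 and Smad4, the shared Smad, one of -0.27 ± 0.09 (edgeR adjusted p = 0.113 and 0.132). At week 2 Nfatc1, an osteoclast regulator, rose by a log2 difference of 0.56 ± 0.10 (edgeR adjusted p = 0.0116), and 0 of 14 passed without the third ACPC-NP library. Among 13 genes of large subunit maturation 7 were below 0, with a median of -0.02. Cinp, a binding partner of the Spata5 complex in human cells, had 0.24 ± 0.08 and Nmd3, the export adaptor, had -0.30 ± 0.11 (edgeR adjusted p = 0.144 and 0.145). Of 4 genes around PILR receptors 2 were below 0, with a median of 0.08, and the phosphatases Ptpn6 and Ptpn11 had 0.27 ± 0.14 and -0.11 ± 0.07 (edgeR adjusted p = 0.293 and 0.387). At week 2 edgeR, DESeq2 and voom each called 0 of the 18 polarity genes, 0 of the 13 and 0 of the 4; 3, 2 and 1 of them had an unadjusted edgeR p under 0.05.

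Ebf1 itself had a pattern like that of Hivep3. At week 6 it was at 137, 152 and 167 CPM around ACPC-NP, at 234, 301 and 286 CPM around CaP, and at 164, 340 and 372 CPM around PCL, so that the first PCL library fell among those of ACPC-NP. At week 2 it was at 190, 193 and 139 CPM around ACPC-NP, at 177, 234 and 224 CPM around CaP, and at 246, 324 and 287 CPM around PCL. Its log2 difference between ACPC-NP and the mean of the others was -0.90 ± 0.22 at week 6 and -0.50 ± 0.21 at week 2 (edgeR adjusted p = 0.105 and 0.211).

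Over the 18 libraries, which hold those that chose the genes, 6 of the 7 genes passed against Ebf1 in log2 CPM, and Pianp did not. Pearson r was 0.841 for Hivep3, 0.802 for Arhgap17, 0.768 for Prkci, 0.757 for Spata5, 0.688 for Apc and 0.647 for Mapk8, with permutation p-values adjusted over 11813 genes between 0.000854 and 0.0236. For Pianp r was 0.346 (permutation p = 0.157, adjusted p = 0.310). Over all genes 12.4% passed with a positive r. By Spearman rho, 5 of 7 passed where 9.42% of genes did with a positive rho; Mapk8, at a rho of 0.597 and an adjusted permutation p of 0.0545, was the one lost. Leaving out the pair of libraries farthest from the median of Ebf1, 6 of 7 passed again. The share of all genes that passed was not recorded for that set. These correlations hold the ACPC-NP libraries of week 6, where the choice made the 7 genes low and where Ebf1 also had its lowest group mean. A positive r was thus partly fixed by the choice, and the groups differ in both genes.

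**Figure D3:**
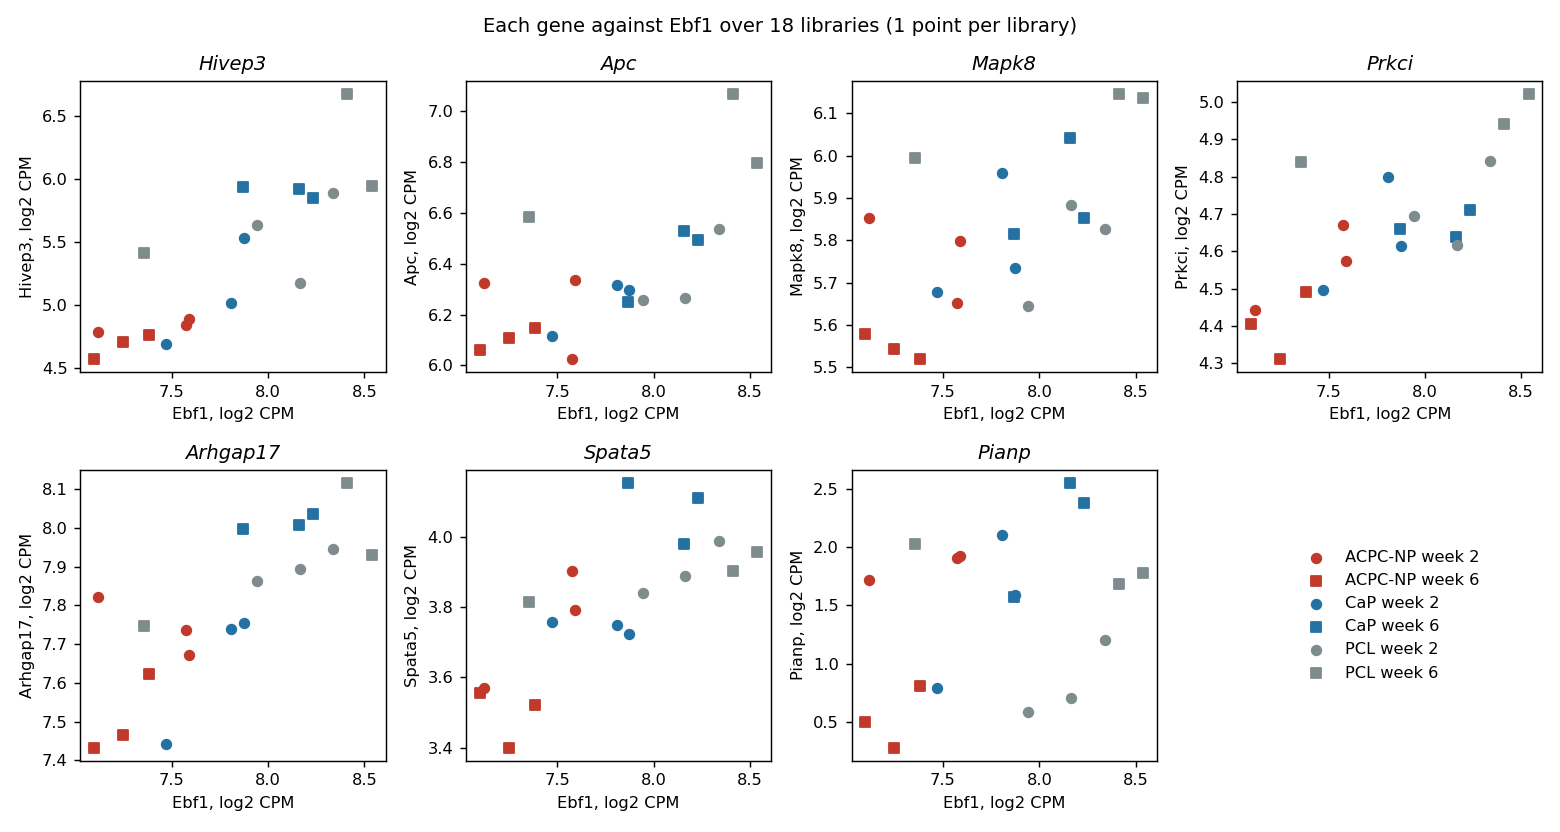
Level of each gene (vertical axis) against that of Ebf1 (horizontal axis), both in log2 CPM, with 1 point per library, coloured by scaffold, circles for week 2 and squares for week 6. ACPC-NP libraries of week 6 lie at the lower left in each panel, the points of Hivep3, Prkci and Arhgap17 climb to the right, and those of Pianp are scattered.

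Without the 3 ACPC-NP libraries of week 6, r over 15 libraries was 0.780 for Hivep3 (adjusted permutation p = 0.00838), 0.699 for Arhgap17 (0.0224), 0.660 for Prkci (0.0379) and 0.645 for Spata5 (0.0440), and these 4 passed, where 9.79% of all genes did with a positive r. Apc, at 0.593, and Mapk8, at 0.471, did not pass (adjusted permutation p = 0.0734 and 0.193). For Pianp r was -0.0023 (permutation p = 0.994, adjusted p = 0.997). Libraries were permuted without regard to scaffold and week, so these p-values also take in differences between groups. The test inside groups is given below. By Spearman rho 2 passed, Hivep3 at 0.807 and Arhgap17 at 0.750 (adjusted permutation p = 0.0144 and 0.0296), where 5.13% of genes did with a positive rho; rho was 0.611 for Prkci, 0.636 for Spata5, 0.489 for Apc, 0.436 for Mapk8 and -0.104 for Pianp.

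The values over 15 libraries changed when a few libraries were left out. Leaving out the pair farthest from the median of Ebf1, the third ACPC-NP library of week 2 and the third PCL library of week 6, r was 0.831 for Arhgap17 (adjusted permutation p = 0.0397) and 0.754 for Hivep3 (0.0758), so Arhgap17 alone passed. It was 0.402 for Prkci and 0.502 for Spata5, and neither passed. The pair left out had the lowest and highest Ebf1 levels of the 15, which narrows the range and can by itself lower r. Whether the relation rests on those libraries was not tested. With only the third ACPC-NP library of week 2 left out as well, Hivep3 and Arhgap17 passed. With the first PCL library of week 6 left out too, which makes 13 libraries, 5 of 7 passed: Hivep3, Apc, Mapk8, Prkci and Arhgap17. Both of these sets were chosen after seeing the data. For none of the sets with libraries left out in this paragraph was the share of all genes that passed recorded. The CaP and PCL libraries of week 6 among the 15 were the reference when the genes were chosen.

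Over the 9 libraries of week 2, taken as independent of the choice as above, r was 0.812 for Hivep3, 0.784 for Spata5, 0.763 for Prkci, 0.568 for Arhgap17, 0.465 for Apc, 0.155 for Mapk8 and -0.402 for Pianp. By exact permutation the unadjusted p was 0.00675 for Hivep3, 0.0134 for Spata5 and 0.0172 for Prkci, and 0 of 7 passed the adjustment over all genes (adjusted p between 0.143 and 0.830), where 0.0254% of genes passed and 20.3% had an unadjusted p under 0.05. By Spearman rho 0 of 7 passed either, where 0.0169% of genes did, and 3 of 7 had an unadjusted exact permutation p under 0.05, where 9.83% of genes did; rho was 0.933 for Hivep3. The median r of the 7 genes was 0.568 beside 0.0283 over all genes, whose 10th to 90th percentiles ran from -0.688 to 0.641. Without the libraries with the lowest and highest Ebf1 level, r was 0.857 for Arhgap17 and 0.715 for Hivep3 but 0.370 for Prkci and 0.258 for Spata5.

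**Figure D4:**
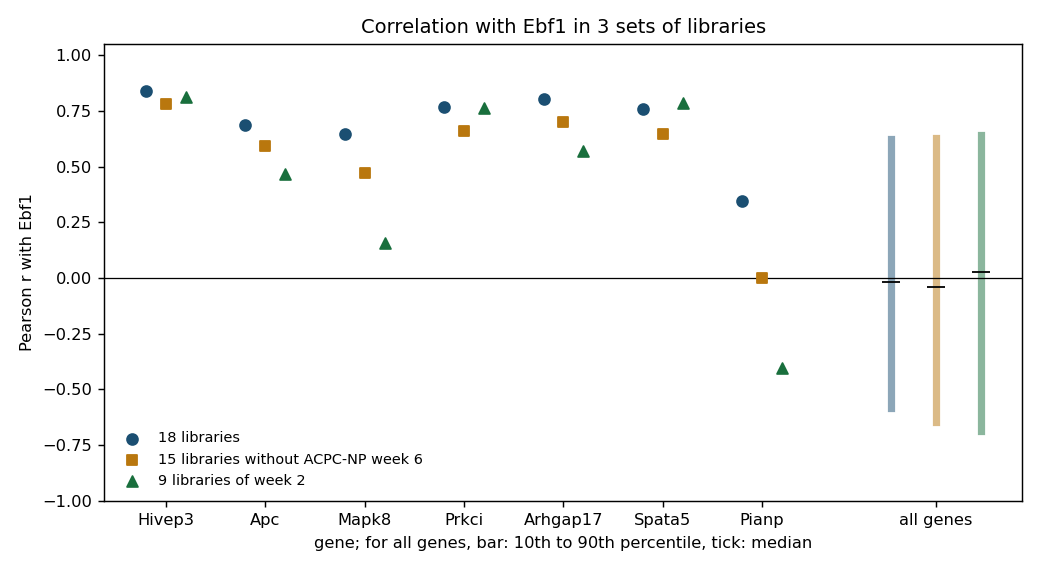
Pearson r with Ebf1 (vertical axis) for each gene over 18, 15 and 9 libraries; at the right, bars give the 10th to 90th percentile and ticks the median over all genes. Hivep3 stays at 0.780 or above in each set, Mapk8 goes from 0.647 to 0.155, and Pianp from 0.346 to -0.402.

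Within groups, deviations from the group means gave an r of 0.634 for Hivep3, 0.617 for Prkci, 0.615 for Arhgap17, 0.592 for Apc, 0.462 for Spata5, 0.365 for Mapk8 and 0.285 for Pianp. By exact permutation inside groups 0 of 7 passed, as did 0 of all genes (0%), of which 19% had an unadjusted p under 0.05. Among the 7 only Prkci had one (exact permutation p = 0.0112, adjusted p = 0.169). Within week 6 r was between 0.707 and 0.899, a description since those libraries chose the genes.

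The r of Ebf1 over 18 libraries with the mean of 19 other B lineage markers was 0.873. With the single markers r ran from -0.085 for Fcer2 to 0.948 for Blnk, an adaptor of B cell receptor signalling. It was 0.932 for Spib and 0.917 for Cd72, and 0.246 for Ms4a1, 0.211 for Dntt, 0.199 for Vpreb1 and 0.153 for Bank1. With that mean in place of Ebf1, 2 of the 7 genes passed, Hivep3 at 0.671 and Arhgap17 at 0.605 (adjusted permutation p = 0.0203 and 0.0445). The share of all genes that passed with it was not recorded, and these 18 libraries hold those that chose the genes. Over the 15 without ACPC-NP at week 6, r with that mean was 0.581 for Hivep3 and 0.468 for Arhgap17. Over the 9 of week 2 it was 0.5335 for Hivep3, 0.551 for Spata5, 0.344 for Prkci and 0.146 for Arhgap17. For Apc, Mapk8 and Pianp it was -0.083, -0.325 and -0.434 there. The values over 15 and 9 libraries were not tested. For Ebf1, r over 18 libraries was -0.756 with the monocyte and macrophage list and -0.631 with the neutrophil list. It was -0.073 with the list of stromal cells that express Lepr, and these values are descriptions.

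Markers of several cell types had unequal levels between the scaffolds at week 6, though edgeR called 0 genes in each marker list. Of all 11814 genes DESeq2 called 307 higher and 355 lower, and voom 1773 higher and 1689 lower. An unadjusted edgeR p under 0.05 was found for 20.5% of all genes. Of 20 B lineage genes, 19 had a log2 difference below 0 (median -0.53; edgeR called 0, DESeq2 6 and voom 11, with 10 at an unadjusted edgeR p under 0.05), and their summed level ran from 2604 to 3458 CPM around ACPC-NP, from 3618 to 5126 CPM around CaP, and from 2770 to 6561 CPM around PCL. The lowest PCL value was that of the first library. Of 12 neutrophil genes 0 were below 0 (median 0.55; DESeq2 called 1 and voom 12), with summed levels from 28807 to 40833 CPM around ACPC-NP, from 22584 to 29536 CPM around CaP and from 15727 to 39147 CPM around PCL. Of 13 erythroid genes 1 was below 0 (median 0.55; DESeq2 called 3 and voom 10), with summed levels from 56860 to 76637 CPM around ACPC-NP and at most 42407 CPM in the other week 6 libraries. Of 12 osteoblast genes 9 were below 0 (median -0.73), with summed levels from 5159 to 9071 CPM around ACPC-NP, from 7406 to 15107 CPM around CaP and from 7510 to 10782 CPM around PCL. Of 13 monocyte and macrophage genes 1 was below 0 (median 0.28), and the summed levels were 9444 to 10955 CPM around ACPC-NP, 5831 to 9914 CPM around CaP and 5528 to 12347 CPM around PCL. Of 10 genes of Lepr-expressing stroma, cells that also express Ebf1, 2 were below 0 (median 0.31), and the summed levels were 108 to 245 CPM, 91.7 to 105 CPM and 65.4 to 140 CPM. Of 9 skeletal muscle genes 0 were below 0 (median 0.97), with summed levels of 66.3, 97.3 and 624 CPM in the ACPC-NP libraries, from lowest to highest, and 60.4 to 207 CPM in the others of week 6. Of 10 T lineage genes 4 were below 0 (median 0.04). All 16 immediate early and stress genes were below 0 (median -0.50; edgeR called 0, DESeq2 0 and voom 3, with 0 at an unadjusted edgeR p under 0.05). The part of these markers in the levels of the 7 genes was not tested.

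At week 2 16 of the 20 B lineage genes were below 0, edgeR called 0 (4 at an unadjusted p under 0.05), DESeq2 1 and voom 5, and the summed level was 2843 to 3695 CPM around ACPC-NP, 3494 to 4838 CPM around CaP and 4524 to 5066 CPM around PCL. In the monocyte and macrophage list 5 of 13 genes were below 0, and edgeR called 7 higher around ACPC-NP at an adjusted p under 0.05, among them Msr1, Cd68 and Csf1r; DESeq2 and voom also called 7. Without the third ACPC-NP library edgeR called 0 of 13, and the median log2 difference of the list was 0.46, beside 0.88 with it. In the immediate early and stress list all 16 genes had a log2 difference above 0. There edgeR called 5, DESeq2 10 and voom 3, and edgeR called 0 without that library. Of all 11814 genes edgeR called 577 higher and 13 lower at week 2. DESeq2 called 939 higher and 80 lower, and voom 670 higher and 204 lower.

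Among themselves the 7 genes make 21 pairs. Over 18 libraries r was above 0 in all 21, from 0.422 to 0.880 with a median of 0.696. Over the 15 without ACPC-NP at week 6 it was above 0 in all 21, from 0.158 to 0.859 with a median of 0.544. In week 2 alone it was above 0 in 16 of 21, from -0.357 to 0.690 with a median of 0.342. The 7 genes were chosen as low in the same ACPC-NP libraries of week 6. That choice favours an r above 0 over 18 libraries. The share above 0 among pairs of all genes was not computed. The points also share library and scaffold, so these values are descriptions.

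The genes whose levels ran closest to each of the 7 over 18 libraries, by Pearson r, were mostly different. For Hivep3 they were Plekhg2 at 0.931, Sipa1l1 at 0.929 and Swap70 at 0.925. For Arhgap17 they were Irf4, a lymphoid transcription factor, at 0.889, Hivep3 at 0.880 and Rnf20 at 0.876. Apc ran with Zfp91 at 0.947, Elk4 at 0.941 and Ash1l at 0.940.

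Mapk8 ran with Naa30 at 0.903, Rnf138 at 0.895 and Hivep1, the paralog of Hivep3, at 0.893. Prkci ran with Ahdc1 at 0.924, Mesdc1 at 0.883 and Pom121 at 0.873, and Spata5 with Hnrnpu at 0.833, Larp7 at 0.823 and Hsp90ab1 at 0.788. Pianp ran with Tcf7l2 at 0.736 and Dnaaf1 at 0.719.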

How the data were processed

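The 18 libraries are 3 for each of 3 scaffolds at weeks 2 and 6. Per the submitters' processing notes, reads were handled with bcl2fastq 2.20.0, STAR 2.7.9a, build Rnor_6.0, featureCounts and Subread 2.0.1; no strand setting is stated, so reads of overlapping or antisense genes cannot be told apart. The authors deposited a table of whole-number counts per gene symbol, which was used for all main tests. They also deposited a table of normalised signal, which per the file values is the deposited count divided by a size factor per library. It served to read those factors and, as log2 of the value plus 1, for an alternative run of the correlations with Ebf1. The files give no coordinates; of 17337 symbols 14821 matched RefSeq (GRCr8), 6 of the 7 genes by symbol and Spata5 as Afg2a.

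Genes were kept by filterByExpr (minimum count 10, total 15), which left 11814 holding 99.98% of counts. The test was edgeR 4.0.16 in R 4.3.3, quasi-likelihood with TMM scaling and 1 term per group over all 18 libraries, with Benjamini-Hochberg adjustment over all genes and a threshold of 0.05. The biological coefficient of variation was 26.0%. Log2 CPM had a prior count of 2; intervals are at 95%. Total counts are given in the results; libraries of a group differed by more than sampling noise (lowest chi-square per degree of freedom 30.5). Correlations with Ebf1 were tested by 100000 permutations (the smallest p they can give is 1e-05), all 362880 orders for 9 libraries, and all 46656 orders inside groups. Except for those inside groups, the orders ignored scaffold and week. DESeq2 1.42.0 and limma 3.58.1 (voom) were alternatives, with other scalings, filters and left-out libraries; the tests were tried on simulated data. Python 3.11.15 was used for correlations.

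The 7 genes and the lists were chosen with earlier results of these data known. Named besides the 7 genes were the 3 nearest genes of each by r, and in each pathway list those past the threshold at week 6 or, with none, the pair with the smallest p; genes called at week 2 and the markers given beside Ebf1 were named after their values were seen. A few genes and 1 list that these rules would name are not reported here.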

Additional observations from a re-analysis of the deposited data

Results flagged for a closer look

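Several pairs of comparisons were searched for each of the 7 genes. In 7 cases every library of 1 group pair pointed one way and every library of another the opposite way. The share of all genes that meet this rule was not computed. All cases but that of Spata5 between CaP and PCL hold the ACPC-NP libraries of week 6, whose low place the choice fixed. The difference between them was not tested, because week 6 libraries chose the genes. Pianp had a log2 difference between ACPC-NP and PCL of 1.03 at week 2 and -1.35 at week 6. Spata5 had a log2 difference between CaP and PCL of -0.17 at week 2 and 0.19 at week 6.

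The other 5 concern week 6 against week 2. Hivep3 had a log2 difference of -0.16 around ACPC-NP and 0.78 around CaP, Arhgap17 of -0.23 and 0.36, and Spata5 of -0.27 and 0.34. Mapk8 had -0.22 around ACPC-NP and 0.31 around PCL, and Pianp had -1.36 and 1.02. For Pianp these rest on 25 to 122 counts per library.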

How the results depend on the processing

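The 7 genes were below 0 at week 6 under all 15 alternatives, with 105 of 105 log2 differences within the spread between libraries of the value reported, and 97 of 105 week 2 values kept their direction and their side of the threshold. Around 0 at week 2, Mapk8 turned to 0.0043 with voom; with 1 library left out the log2 difference ran from -0.0731 to 0.0332 for Mapk8, from -0.1213 to 0.0277 for Apc, from -0.0798 to 0.0023 for Arhgap17 and from -0.1417 to 0.0144 for Spata5. Voom called 1 of the 7 at week 2, Pianp, against the mean and against PCL. Against the mean it called 670 genes higher and 204 lower of 11814. Genes called at week 2 against the mean, 590 as reported, were 1019 with DESeq2, 4 in a fit of that week's libraries only, 10 to 1363 with 1 library left out and 10 without the third ACPC-NP library. Against PCL they were 0 as reported, 634 with DESeq2, 281 with voom and 0 to 877 with 1 library left out, and against CaP 0, 595, 365 and 0 to 893. At week 6 they were 0 as reported, 662 with DESeq2, 3462 with voom, 317 in a fit of that week only, and 0 to 1335 with 1 library left out, 1335 being without the first PCL library. Of the 7, 6 passed against Ebf1 over 18 libraries as reported, and 2 with the B lineage mean in its place. Over 14 libraries, an alternative chosen after seeing the data, 2 passed, and with 1 library left out 5 to 6 did. The sets of 18 libraries and those with 1 left out hold ACPC-NP libraries of week 6, which chose the genes. Of 168 correlations 156 kept their side and 0 turned. The share of all genes that passed was not recorded for these alternatives of the correlations. The cause of these differences was not tested.

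Replicate numbers did not pair the libraries: deviations correlated over 0.1 in 18 of 45 same-number pairs, in all 3 pairs for 1 of 15 pairs of groups, and the same number was the best match in 30 of 90 cases. With the replicate block 239 genes were called at week 2 against the mean and 49 at week 6, while 0 of the 7 were called at week 2. With both week and replicate block removed from the levels, 6 of the 7 passed against Ebf1. That set holds the libraries that chose the genes. With 3 libraries a group, small differences were not detectable, least of all for Pianp.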
